A study of Homo sapiens with 27 samples.

Results

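The genes LAMB1, LAMB2, LAMB3, LAMB4, LAMC1, and LAMC3, which encode laminin β and γ chains, were followed in differentiating human embryonic stem cells (hESCs) grown on supplied laminin matrices. They were found as the rows of the deposited tables whose Ensembl identifiers map to these symbols, and they are 6 of 44852 genes. Cells of the H1 hESC line were plated on LN523, LN323, or LN521 matrix and collected at days 2, 22, and 32, with 3 bulk RNA-seq libraries for each matrix and day, 27 in all. The study asked how the α and γ chains of the supplied laminin affect differentiation toward photoreceptor progenitors, and the question here is whether a γ3 or a γ1 matrix changes the chains that the cells themselves transcribe. All 9 groups came from this 1 line and began in a pluripotency medium, and the day 2 groups are labelled undifferentiated. Neural induction with the kinase inhibitors CKI-7 and SB431542 started on day 2, and the day 22 and day 32 groups then received photoreceptor differentiation medium with B27 lacking vitamin A, N2, BDNF, CNTF, retinoic acid, and DAPT. A change from day 2 to a later day is therefore also a change of medium, and time and medium cannot be told apart. The library titles number days 2, 22, and 32 as 0, 20, and 30. In the paper the LN523 and LN323 matrices are mixtures with LN521 and LN521 is used alone, whereas the sample labels describe LN323 alone and the others mixed with it. The matrices are therefore named by their leading isoform, and every statement on γ3 against γ1 rests on that name. In the paper's account every matrix holds LN521 and so γ1, and in the labels' account every matrix holds LN323 and so γ3. In neither account is γ3 alone compared with γ1 alone.

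Laminins are basement membrane proteins built of 1 α, 1 β, and 1 γ chain, and an isoform is named by the numbers of its chains, so that LN523 holds α5, β2, and γ3. LN523 and LN521 share α5 and β2 and differ in the γ chain, while LN523 and LN323 differ in the α chain. The trimer forms inside the cell through a coiled coil, and the secreted protein polymerizes into a network that cells bind through integrins and dystroglycan. The β2 and γ3 chains are known from the matrix around photoreceptors, the β1 and γ1 chains are found in most basement membranes, and the β3 chain belongs to the laminin that anchors stratified epithelia. The β4 chain is the least studied of the family. The coating is protein, so reads at these loci come from transcripts of the cells, and chain protein was not measured in these libraries.

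On GRCh38, LAMB1 (ENSG00000091136) lies on the minus strand of chromosome 7 from 107923799 to 108003213, and LAMB4 (ENSG00000091128) follows on the same strand from 108023548 to 108130361, 20334 bases away. LAMB2 (ENSG00000172037) lies on the minus strand of chromosome 3 from 49121114 to 49133118, LAMB3 (ENSG00000196878) on the minus strand of chromosome 1 from 209614870 to 209652425, and LAMC1 (ENSG00000135862) on the plus strand of chromosome 1 from 183023420 to 183145592. LAMC3 (ENSG00000050555) lies on the plus strand of chromosome 9 from 131009174 to 131094473. Of the exonic length of LAMB1, 2.6% overlaps genes of the opposite strand including DLD, and whether the counting used strand is not stated. Exons of LAMB3 overlap the microRNA gene MIR4260 over 0.13% of their length. No stretch of these transcripts matched another gene.

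The RefSeq promoter table of GRCh38.p14 holds starts for 5 of the 6 genes. The 130 bases before the start are shown 5′ to 3′ on the strand of the gene, since these chains moved apart from each other with day and LAMB3 and LAMB4 varied together between libraries. Capitals mark the GC box letters GGGCGG and the AP-1 letters TGACTCA, searched on both strands (CCGCCC and TGAGTCA on the other strand).
LAMB1, chr7:108003162-108003291: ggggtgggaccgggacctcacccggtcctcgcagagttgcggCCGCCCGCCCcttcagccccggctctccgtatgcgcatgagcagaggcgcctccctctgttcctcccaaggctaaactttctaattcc
LAMB2, chr3:49133051-49133180: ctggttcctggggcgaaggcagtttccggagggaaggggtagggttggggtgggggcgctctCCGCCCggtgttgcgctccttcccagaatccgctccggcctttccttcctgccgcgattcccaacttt
LAMB3, the third start, chr1:209651375-209651504: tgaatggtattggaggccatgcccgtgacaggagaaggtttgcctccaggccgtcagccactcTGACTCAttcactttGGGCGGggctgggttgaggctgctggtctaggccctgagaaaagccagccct
LAMB4, chr7:108130362-108130491: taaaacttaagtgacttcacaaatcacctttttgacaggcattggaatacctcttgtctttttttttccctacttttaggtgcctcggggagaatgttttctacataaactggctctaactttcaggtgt
LAMC1, chr1:183023290-183023419: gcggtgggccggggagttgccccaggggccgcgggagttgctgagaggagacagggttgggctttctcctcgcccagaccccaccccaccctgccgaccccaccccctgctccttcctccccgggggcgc
The GC box letters stood before the starts of LAMB1, where 2 matches overlap, of LAMB2, and of LAMB3 at 2 of its 3 listed starts, and 35.0% of the 35116 windows of this length held them. The AP-1 letters stood 67 bases before the third of 3 listed LAMB3 starts and in no other window of these genes, and 2.54% of all windows held them. The LAMB4 window held neither motif and had 37.7% G and C against 74.6% in the LAMC1 window. A match of letters is a description and not a binding site, and the motifs were chosen with these sequences in view.

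Total counts per library ran from 25620624 to 47340990. At day 2 the summed level of 5 pluripotency markers (POU5F1, NANOG, LIN28A, DPPA4, TDGF1) was 4959 to 8250 CPM (counts scaled to 1000000 per library with TMM factors), and at day 32 it was 5.60 to 52.0 CPM. The group means of PAX6, a marker of neural retina, ran from 1.38 to 1.74 CPM at day 2 and from 644 to 717 CPM at day 32. Among the 4 photoreceptor precursor markers, group means of CRX ran from 0.177 to 0.224 CPM at day 2 and from 6.77 to 23.1 CPM at day 32, those of RCVRN from 0.0 to 0.0203 CPM and from 0.174 to 2.40 CPM, and those of NRL from 1.08 to 2.07 CPM and from 1.18 to 2.83 CPM. OTX2, which is also known from pluripotent cells, ran from 86.3 to 123.5 CPM at day 2 and from 20.8 to 59.3 CPM at day 32. The late libraries also held markers of other cells. Summed levels at day 32 were 607 to 2210 CPM for 7 pigment epithelium markers, 64.2 to 604 CPM for 5 stratified epithelium markers (KRT5, KRT14, KRT15, KRT17, TP63), and 2363 to 16250 CPM for 6 mesenchyme markers. The lane 1 libraries of LN521 stood apart in these markers. At day 22 that library had 342 CPM of 3 neuron markers (ELAVL3, STMN2, DCX) against 11.5 to 46.5 CPM in the other 8 and 369.5 CPM of the pluripotency markers against 23.7 to 158 CPM, and at day 32 it had 452 CPM of the neuron markers against 82.2 to 289.5 CPM and 607 CPM of the pigment epithelium markers against 2050 and 2210 CPM in the other LN521 libraries. Differences from LN521 are given without it where it decides them, and its part in them was not tested. In bulk RNA, fewer cells of a type and less RNA per cell cannot be told apart. The replicate number equals the sequencing lane, and nothing states that the 3 libraries of a group were separate cultures. The p-values therefore measure only the spread between these libraries, whose source was not tested. That spread was wide for some genes. On LN523 at day 32 LAMB3 was at 12.3, 145, and 22.5 CPM in lanes 1, 2, and 3. Testing was by edgeR's quasi-likelihood test with lane as a block, a log2 fold change is given with its standard error (SE), and a gene was called at a Benjamini-Hochberg adjusted p under 0.05 over all genes tested. Levels are in TPM, which is per length and allows chains to be compared, and differences are on the scale of TMM-normalized counts.

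At day 2 the cells transcribed mostly LAMC1 and LAMB2. LAMC1, the γ chain of most laminins, ranged over the 9 libraries from 114 to 151 TPM (median 131), and LAMB2 from 75.5 to 111 TPM (median 101). LAMB1 was at 22.5 to 54.0 TPM (median 34.6) and LAMC3 at 14.8 to 23.9 TPM (median 18.8). LAMB3 was at 1.45 to 3.05 TPM, and LAMB4 had 1 count in the 9 libraries together. By day 22 LAMB1 had reached 137 to 252 TPM (median 198) and LAMB2 214 to 337 TPM (median 288), close to LAMC1 at 183 to 256 TPM (median 209). LAMC3 stood then at 1.55 to 6.64 TPM (median 2.79). At day 32 LAMB2 was the most abundant of the 6 by its median of 342 TPM (184 to 487), followed by LAMC1 at 190 TPM (147 to 238), LAMB1 at 115 TPM (73.7 to 290), and LAMB3 at 42.6 TPM (10.4 to 122). In the plot of levels by library the day 2 libraries of LAMB1, LAMB2, and LAMC3 stand apart from all later ones, days 22 and 32 overlap for each gene, and LAMB3 spreads over a wide range within a group.

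**Figure D1:**
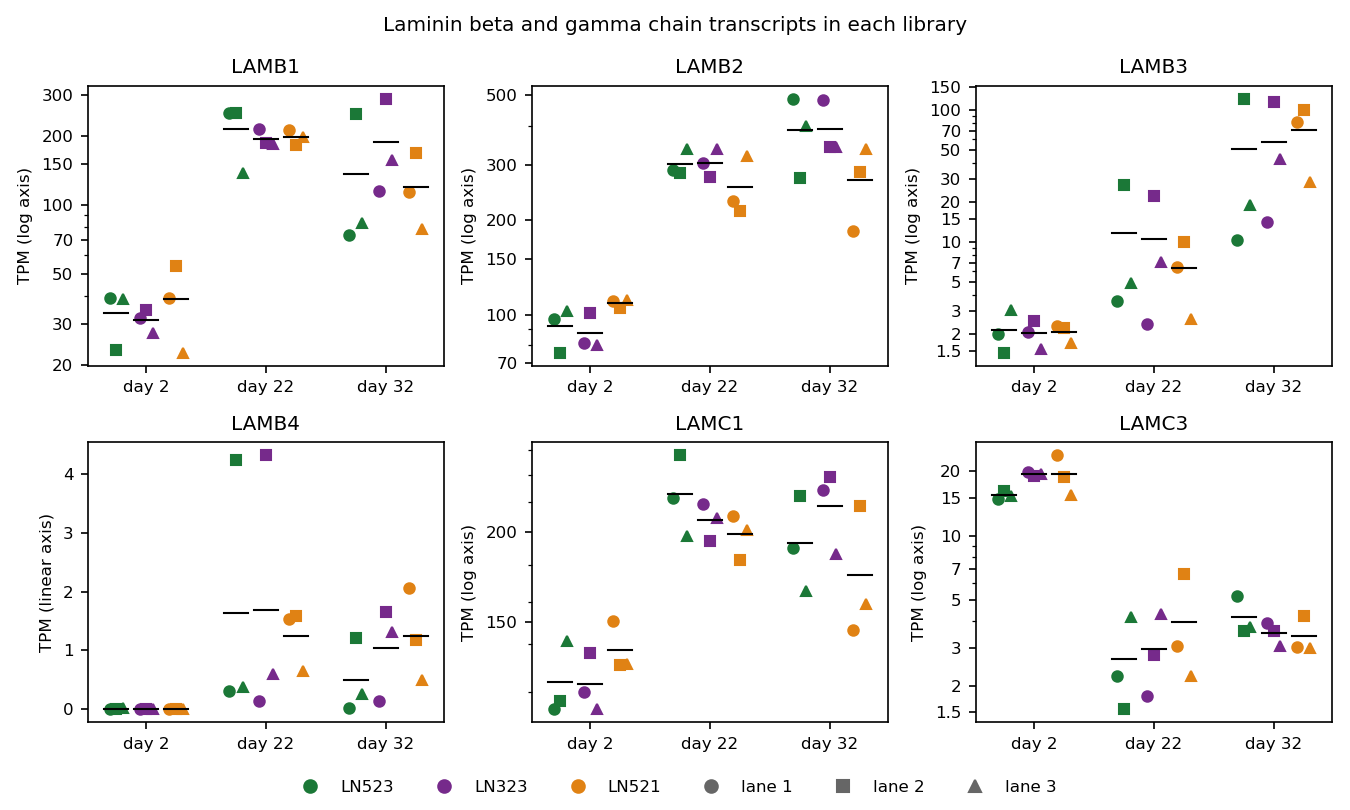
TPM of the 6 laminin chain genes in each of 27 libraries by day, on log axes except for LAMB4; color gives the matrix, the marker shape gives the sequencing lane, and the black line is the mean of 3 libraries. LAMC3 falls from 14.8 to 23.9 TPM at day 2 to 1.55 to 6.64 TPM at day 22, while LAMB1 and LAMB2 rise on every matrix.

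No chain was called between matrices at any day. Over the 9 comparisons of matrix within day, 51 tests of a member were made, with LAMB4 not tested at day 2, and 0 passed, the lowest adjusted p being 0.497. At an unadjusted p under 0.05 there were 6 of the 51, all at day 32: LAMB1 and LAMB2 for LN323 minus LN521, LAMB2, LAMB3, and LAMB4 for LN523 minus LN521, and LAMB1 for LN523 minus LN323. The share of all genes called between LN523 and LN521 was 0.624% at day 2, 0.572% at day 22, and 0.0609% at day 32. Between LN323 and LN521 it was 2.5%, 0.616%, and 0.117%, and between LN523 and LN323 it was 0.233%, 0.013%, and 0.0%. Against shares this low, 0 called members is near the background, so each difference is given with its interval or SE. The 0 calls between LN523 and LN323 at day 32 stand beside 747 genes at an unadjusted p under 0.05 in edgeR, and 1035 genes were called when only those 6 libraries were fitted. At day 2 the median log2 fold change of all genes was -0.19 for LN523 minus LN521 and -0.2 for LN323 minus LN521, so that a value near 0 lies above the middle of all genes at that day.

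LAMC3, the γ chain supplied in LN523 and LN323, was at 14.8, 16.2, and 15.3 TPM on LN523 at day 2 (lanes 1, 2, and 3), at 19.8, 19.1, and 19.5 TPM on LN323, and at 23.9, 18.8, and 15.5 TPM on LN521. The LN523 and LN521 libraries overlapped, and on the CPM scale those of LN323 lay above both. The log2 fold change was -0.11 (SE 0.21, 95% interval -0.52 to 0.3, adjusted p = 0.917) for LN523 minus LN521 and 0.27 (SE 0.21, -0.14 to 0.68, adjusted p = 0.787) for LN323 minus LN521. At day 22 LAMC3 was at 2.21, 1.55, and 4.19 TPM on LN523, at 1.78, 2.79, and 4.31 TPM on LN323, and at 3.05, 6.64, and 2.23 TPM on LN521. The 3 ranges overlapped, and the library of LN521 in lane 2 was the highest. The differences were -0.65 (SE 0.38, -1.41 to 0.1) and -0.5 (SE 0.37, -1.24 to 0.24), each with an adjusted p of 1.0, and without that LN521 library they were 0.02 and 0.28. At day 32 the levels were 5.25, 3.59, and 3.75 TPM on LN523, 3.93, 3.61, and 3.05 TPM on LN323, and 3.01, 4.22, and 2.99 TPM on LN521. They overlapped again, with differences of 0.32 (SE 0.34, -0.39 to 1.02) and 0.02 (SE 0.34, -0.68 to 0.73). A change in LAMC3 of the size seen from day 2 to day 22, described below, lies outside all these intervals.

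LAMC1 is the γ chain of LN521, which the paper's LN523 and LN323 mixtures also hold. On LN523 it was at 114, 117, and 142 TPM at day 2, 223, 256, and 198 TPM at day 22, and 190, 224, and 166 TPM at day 32. On LN323 the values were 120, 136, and 114 TPM, then 219, 195, and 209 TPM, then 229, 238, and 186 TPM, and on LN521 they were 151, 131, and 131 TPM, then 211, 183, and 201 TPM, then 147, 217, and 159 TPM. The matrices overlapped at each day in TPM, though on the CPM scale LN323 lay above LN521 at day 2. The log2 fold change of LN523 minus LN521 was 0.04 (SE 0.18), 0.17 (SE 0.16), and 0.18 (SE 0.17) at days 2, 22, and 32, and of LN323 minus LN521 it was 0.09 (SE 0.18), 0.09 (SE 0.16), and 0.31 (SE 0.17). The widest of these 6 intervals reached 0.67, and the lowest adjusted p was 0.901. At day 2 the sign depended on the scale, since limma on log2(TPM + 1) gave -0.15 and -0.16.

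LAMB1, the β chain of early embryonic and most adult basement membranes, was at 39.1, 23.3, and 38.8 TPM on LN523 at day 2, at 31.9, 34.6, and 27.4 TPM on LN323, and at 39.2, 54.0, and 22.5 TPM on LN521. The difference from LN521 was 0.05 (SE 0.2) on LN523 and -0.02 (SE 0.19) on LN323. At day 22 it was at 252, 251, and 137 TPM on LN523, at 214, 186, and 184 TPM on LN323, and at 213, 181, and 198 TPM on LN521, with differences of 0.06 (SE 0.17) and 0.0 (SE 0.17). The groups overlapped at both days, and the signs of these 4 differences changed with scaling or when 1 library was left out. At day 32 the values were 73.7, 250, and 83.0 TPM on LN523, 115, 290, and 157 TPM on LN323, and 114, 168, and 78.5 TPM on LN521, so that lane 2 was the highest on each matrix. LN323 stood above LN521 in 3 of 3 lanes, by 0.57 (SE 0.2, 0.15 to 1.0, adjusted p = 0.652), and above LN523 in 3 of 3 lanes, where LN523 minus LN323 was -0.55 (SE 0.2, -0.97 to -0.12, adjusted p = 1.0). Fitted on 9 libraries, neither was called. The first was called without the LN521 library of lane 1 (0.89, adjusted p = 3.11e-09) and the second when only LN523 and LN323 were fitted (adjusted p = 1.45e-05). The difference of LN523 from LN521 was 0.03 (SE 0.21).

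LAMB2, the β chain of all 3 supplied isoforms and of synapses and retina, was at 96.6, 75.5, and 103 TPM on LN523 at day 2, at 81.3, 101, and 79.8 TPM on LN323, and at 111, 105, and 111 TPM on LN521. LN521 was above both other matrices in TPM, but in CPM the groups overlapped, with differences of -0.06 (SE 0.18) and -0.07 (SE 0.18). At day 22 it was at 288, 283, and 337 TPM on LN523, at 304, 274, and 336 TPM on LN323, and at 230, 214, and 320 TPM on LN521. Both γ3 matrices were above LN521 in 3 of 3 lanes, by 0.25 (SE 0.16, adjusted p = 1.0) and 0.3 (SE 0.16, adjusted p = 1.0). At day 32 the values were 487, 272, and 400 TPM on LN523, 484, 342, and 343 TPM on LN323, and 184, 284, and 337 TPM on LN521. The differences were 0.51 (SE 0.23, 0.04 to 0.97, adjusted p = 0.863) and 0.49 (SE 0.23, 0.03 to 0.96, adjusted p = 1.0). The groups overlapped and only the lane 1 library of LN521 lay below all the others. Without it the difference was 0.11 on either matrix.

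LAMB3, the β chain of epithelial anchoring laminin, was at 2.02, 1.45, and 3.05 TPM on LN523 at day 2, at 2.09, 2.54, and 1.55 TPM on LN323, and at 2.32, 2.22, and 1.72 TPM on LN521. At day 22 it was at 3.57, 27.0, and 4.88 TPM on LN523, at 2.39, 22.2, and 7.07 TPM on LN323, and at 6.43, 10.0, and 2.60 TPM on LN521. The lane 2 library was the highest on each matrix. The differences from LN521 were 0.24 (SE 0.41) and 0.23 (SE 0.4) at day 2 and 0.35 (SE 0.32) and 0.38 (SE 0.33) at day 22, and the latter were called without the LN521 library of lane 1, at 1.27 (adjusted p = 0.00412) and 1.21 (adjusted p = 0.0041). At day 32 LAMB3 was at 10.4, 122, and 19.1 TPM on LN523, at 14.2, 116, and 42.6 TPM on LN323, and at 81.9, 99.9, and 28.7 TPM on LN521. LN521 had 2 libraries above 80 TPM and the other matrices 1 each, with overlap throughout. LN523 minus LN521 was -1.21 (SE 0.42, -2.08 to -0.34, adjusted p = 0.497) and LN323 minus LN521 was -0.73 (SE 0.42, -1.59 to 0.13, adjusted p = 1.0). Without the LN521 library of lane 1 the first became -0.08 and the second 0.38.

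LAMB4, the remaining β chain, was read at 22, 293, and 23 counts on LN523 at day 22, at 6, 324, and 46 counts on LN323, and at 112, 118, and 40 counts on LN521. At day 32 it was at 2, 79, and 20 counts on LN523, at 8, 116, and 92 counts on LN323, and at 138, 69, and 32 counts on LN521. These correspond to at most 4.33 TPM. LAMB1 and LAMB2 were far above this in every late library, whereas LAMB3 came as low as 2.39 TPM at day 22. LN523 minus LN521 was -0.83 (SE 0.52, adjusted p = 1.0) at day 22 and -2.33 (SE 0.93, -4.25 to -0.42, adjusted p = 0.692) at day 32, and LN323 minus LN521 was -0.69 (SE 0.53, adjusted p = 1.0) and -0.95 (SE 0.91, adjusted p = 1.0). The day 22 signs went against the mean levels of 2.71 CPM on LN523, 2.89 CPM on LN323, and 2.145 CPM on LN521. Without the lane block the day 22 differences were 0.33 and 0.43. Without the LN521 library of lane 1 they were 0.53 and 0.49 at day 22 and -0.43 and 1.08 at day 32.

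**Figure D2:**
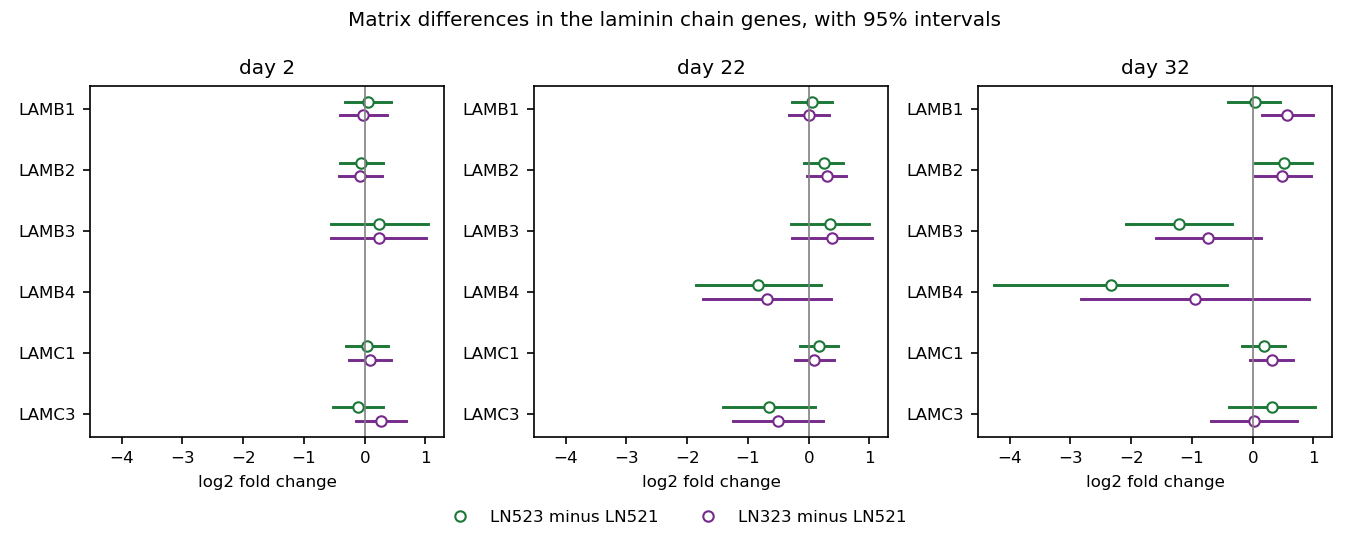
Log2 fold change of LN523 minus LN521 (green) and LN323 minus LN521 (purple) for each laminin chain gene at days 2, 22, and 32, with 95% intervals from edgeR; open circles had an adjusted p of 0.05 or more. All circles are open, LAMB4 was not tested at day 2, and the intervals of LAMB3 and LAMB4 are the widest.

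The balance between chains was compared as the ratio of their TPM in each library, with LN523 and LN323 together (6 libraries) against LN521 (3 libraries) at each day. LAMC1 exceeded LAMC3 in every library, by 5.83-fold to 9.26-fold at day 2, 27.6-fold to 165-fold at day 22, and 36.2-fold to 66.0-fold at day 32. The log2 ratio of LAMC3 to LAMC1 was -2.83 ± 0.241 (SD, n = 6) on the γ3 matrices and -2.84 ± 0.215 (SD, n = 3) on LN521 at day 2. At day 22 it was -6.38 ± 0.735 against -5.80 ± 0.899, and at day 32 -5.74 ± 0.343 against -5.67 ± 0.065. The differences of 0.016, -0.576, and -0.067 were within the spread of the libraries (two-sided exact permutation p = 0.941, 0.345, and 0.762, with 0.0119 the smallest that 84 arrangements allow). LAMB2 exceeded LAMB1 in every library, by 1.95-fold to 4.93-fold at day 2, 1.08-fold to 2.46-fold at day 22, and 1.09-fold to 6.61-fold at day 32. The log2 ratio of LAMB2 to LAMB1 differed between γ3 matrices and LN521 by -0.111, 0.254, and 0.239 at days 2, 22, and 32 (exact permutation p = 0.679, 0.429, and 0.786). Adjusted over the 6 tests, every p was 0.941. With the mean of each lane removed, the permutation p of the day 22 ratio of LAMB2 to LAMB1 became 0.0357, or 0.214 adjusted over 6. In all of these tests the arrangements moved libraries across lanes, so no p here is from an exact test within lanes. They also treated LN523 and LN323 as 6 separate libraries. Deviations from group means in LN523 and LN323 libraries of 1 lane correlated at a mean r of -0.39, 0.601, and 0.693 at days 2, 22, and 32.

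**Figure D3:**
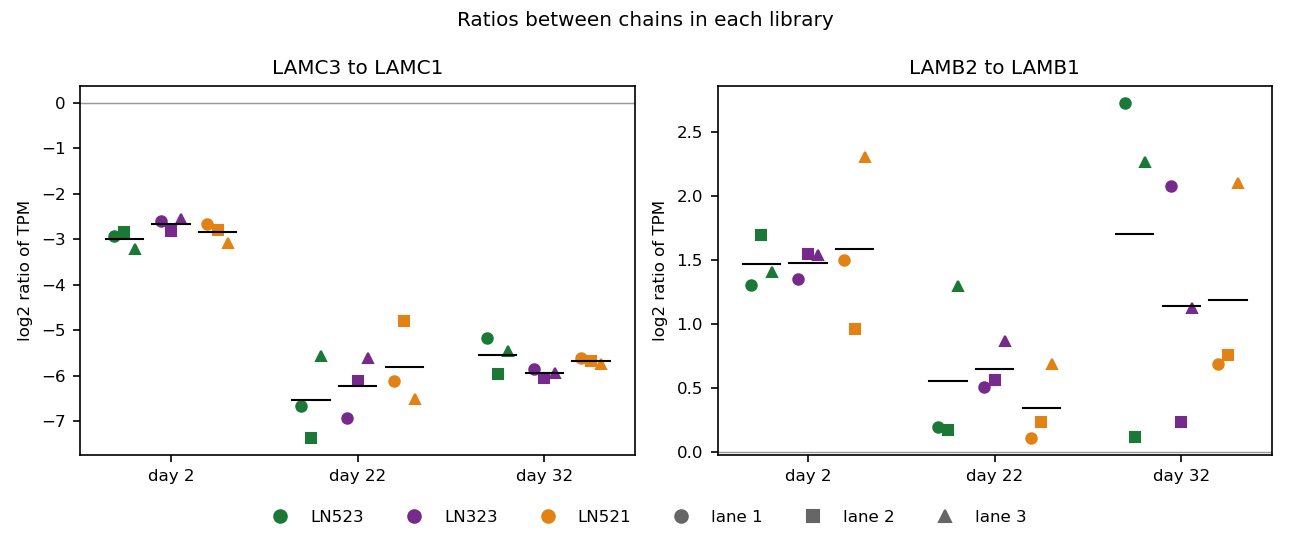
Log2 ratio of TPM of LAMC3 to LAMC1 (left) and of LAMB2 to LAMB1 (right) in each library by day; color gives the matrix, marker shape the lane, and the black line the mean of 3 libraries. The left ratio drops from between -3.21 and -2.54 at day 2 to between -7.37 and -4.79 at day 22 on all matrices, and the right ratio stays above 0 throughout.

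Day, in contrast, moved nearly all of the chains. Between day 2 and day 22, 6 of 6 genes were called on LN523, 5 of 6 on LN323, and 6 of 6 on LN521, where 21.7%, 22.7%, and 18.9% of all genes were called. With 1 library left out the count ran from 4 to 6 on each matrix. On each matrix the called genes rose except LAMC3, which fell. The median log2 fold change of the 6 genes was 1.42, 1.52, and 1.3, against 0.02, 0.02, and -0.02 for all genes. LAMC3 fell by 2.86 on LN523 (SE 0.36, adjusted p = 7.73e-09), by 3.06 on LN323 (SE 0.36, adjusted p = 1.31e-09), and by 2.29 on LN521 (SE 0.35, adjusted p = 8.86e-07) on the log2 scale. These are decreases of 7.24-fold, 8.34-fold, and 4.90-fold, and the day 2 and day 22 libraries did not overlap. LAMC3 was called in every alternative fit run, each library left out in turn included. LAMC1 rose by 0.54 on LN523 (SE 0.17, adjusted p = 0.0173) and by 0.51 on LN521 (SE 0.17, adjusted p = 0.0291), and its value on LN323 was 0.42 (SE 0.17, adjusted p = 0.0806). That LN323 value was called by DESeq2 (adjusted p = 0.02) and in limma on log2(TPM + 1) (0.75, adjusted p = 0.000506). The LN521 call was lost with RLE normalization (0.42, adjusted p = 0.0787). Without the lane 1 or lane 2 library of day 2 neither matrix was called, at 0.49 and 0.48 on LN523 (adjusted p = 0.0918 and 0.0962) and 0.52 and 0.43 on LN521 (adjusted p = 0.0659 and 0.161). The LN521 call was also lost without the lane 1 or lane 3 library of day 22, where the value was 0.52 and 0.54 (adjusted p = 0.0664 and 0.0573). On lanes 1 and 3 only, LAMC1 was at 0.45 on LN523 and 0.51 on LN521, neither called (adjusted p = 0.203 and 0.136). The LN323 value was called without its lane 2 library of day 22 (0.63, adjusted p = 0.0131). The γ3 chain thus fell on all 3 matrices. The γ1 chain was higher at day 22 in 3 of 3 lanes on each matrix, with calls that depended on the fit.

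LAMB1 rose the most among the chains read at every day, by 2.26 on LN523 (SE 0.28, adjusted p = 3.67e-09), 2.31 on LN323 (SE 0.28, adjusted p = 1.74e-09), and 2.44 on LN521 (SE 0.28, adjusted p = 6.84e-10). These are 4.79-fold, 4.97-fold, and 5.41-fold. LAMB2 rose by 1.41 (SE 0.2, adjusted p = 1.8e-07), 1.45 (SE 0.2, adjusted p = 9.6e-08), and 1.19 (SE 0.2, adjusted p = 6.53e-06) in the same order, or 2.66-fold, 2.73-fold, and 2.28-fold. Both genes were higher in 3 of 3 lanes on each matrix with no overlap between the days, and both were called in every alternative fit run, each library left out in turn included. LAMB3 rose by 1.44 (SE 0.49, adjusted p = 0.0271), 1.6 (SE 0.49, adjusted p = 0.0114), and 1.41 (SE 0.49, adjusted p = 0.0329), but its days overlapped in CPM on LN523 and LN323, and on LN323 it was higher in 2 of 3 lanes. LAMB3 lost its call on every matrix under the filterByExpr filter (adjusted p = 0.0957, 0.0605, and 0.113) and in limma. In DESeq2 it was lost on LN523 (adjusted p = 0.0682) and LN521 (adjusted p = 0.101). With RLE normalization it was lost on LN521 (edgeR adjusted p = 0.0615), where 2 of 8 alternative fits called LAMB3. Without the lane 2 library of day 2 its adjusted p was 0.319 on LN523, 0.0978 on LN323, and 0.288 on LN521. Without the lane block the LN521 call was lost as well (adjusted p = 0.0752). The call was also lost without the lane 2 library of day 22 on LN523 (adjusted p = 0.114) and without the lane 3 library of day 22 on LN323 (adjusted p = 0.0501). On LN521 it was lost without the lane 1 or the lane 3 library of day 2 (adjusted p = 0.0501 and 0.0803) or the lane 1 library of day 22 (adjusted p = 0.235). LAMB4 went from 1, 0, and 0 counts at day 2 to 338, 376, and 270 counts at day 22 in the 3 libraries of each matrix. A floor of 3 counts was set for the day 2 libraries of a matrix. Against it the pooled counts were 103-fold higher on LN523, 142-fold higher on LN323, and 86.3-fold higher on LN521. These values depend on that floor and are not lower bounds. The edgeR interval of the fold began at 21.9 on LN523, 77.3 on LN323, and 128 on LN521. Lane 2 held 293 of the 338 counts on LN523, 324 of the 376 on LN323, and 118 of the 270 on LN521. LAMB4 was called on each matrix in 7 of 8 alternative fits and with any 1 library left out, and was lost in limma on log2(TPM + 1) (adjusted p = 0.101, 0.0915, and 0.0723).

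Between day 22 and day 32 only LAMB3 was called, on each of the matrices, where 0.381%, 0.0424%, and 0.268% of all genes were called on LN523, LN323, and LN521. LAMB3 rose by 2.08 (SE 0.48, adjusted p = 0.0233), 2.46 (SE 0.49, adjusted p = 0.0206), and 3.52 (SE 0.51, adjusted p = 6.51e-05), and it was higher at day 32 in 3 of 3 lanes on each matrix. These are 4.24-fold, 5.51-fold, and 11.5-fold. The days overlapped on LN523 and LN323 and not on LN521. The calls on LN523 and LN323 were lost without the lane block (adjusted p = 0.201 and 0.32) and in DESeq2 (adjusted p = 0.119 and 0.1), and all were lost under the filterByExpr filter (adjusted p = 0.407, 0.943, and 0.0961) and in limma. Without the day 32 library of lane 2 the rise was 1.21 on LN523 (adjusted p = 0.755) and 2.22 on LN323 (adjusted p = 0.327), whereas on LN521 it was called with any 1 library left out. It also lost its call without the day 22 library of lane 1 or lane 3 on LN523 (adjusted p = 0.343 and 0.197) and on LN323 (adjusted p = 0.391 and 0.178), and without the day 32 library of lane 3 on LN323 (adjusted p = 0.075). The log2 fold change of LAMB1 was -0.67 on LN523 (SE 0.27, adjusted p = 0.798), -0.16 on LN323 (SE 0.27, adjusted p = 1.0), and -0.79 on LN521 (SE 0.27, adjusted p = 0.345). Without the day 32 library of lane 2 on LN523 it was -1.23 there and called (adjusted p = 0.0164). When only the groups compared were fitted, LAMB1 was called on LN523 (-0.76, adjusted p = 0.0478) and LN521 (-0.78, adjusted p = 0.03). On lanes 1 and 3 only, a setting added after seeing the data, LAMB1 was called on LN523 (-1.22, adjusted p = 6.48e-05) and LN521 (-1.09, adjusted p = 0.00119). LAMB2, LAMC1, LAMC3, and LAMB4 were not called on any matrix.

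**Figure D4:**
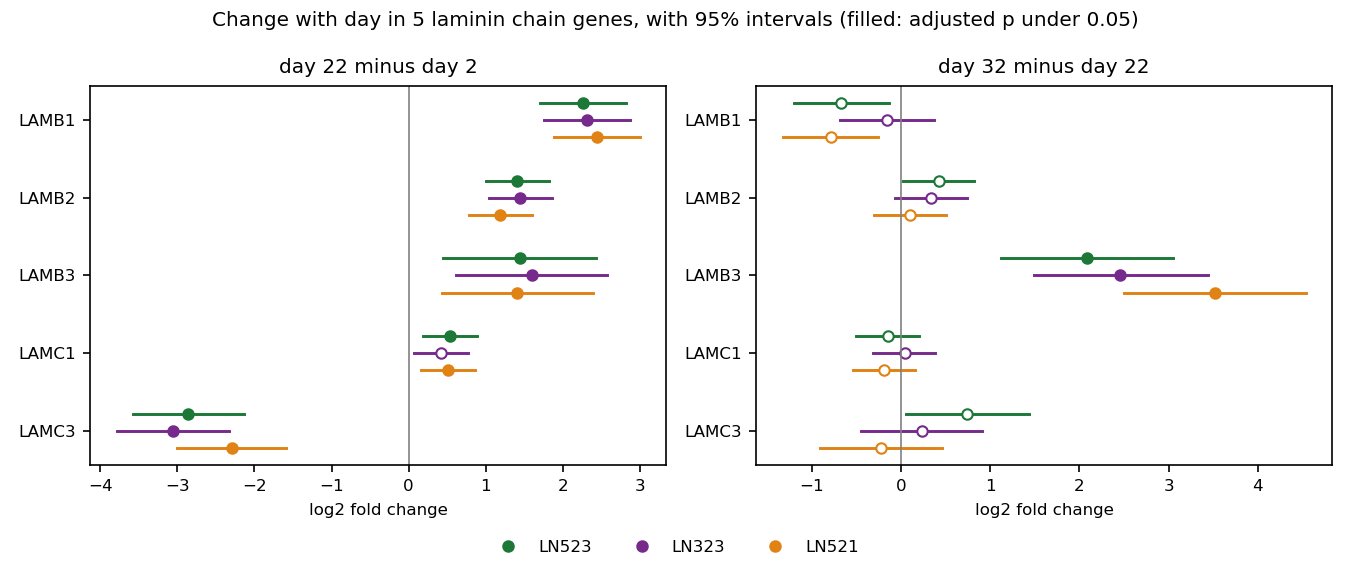
Log2 fold change of 5 laminin chain genes from day 2 to day 22 (left) and from day 22 to day 32 (right) on LN523 (green), LN323 (purple), and LN521 (orange), with 95% intervals from edgeR; filled circles had an adjusted p under 0.05. In the left panel LAMC3 lies between -3.06 and -2.29 and all other genes lie above 0, and in the right panel only LAMB3 is filled.

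Whether the difference of LN523 from LN521 itself moved with day was tested on all 27 libraries. From day 2 to day 22, 0 of 6 chains were called, where 0.00446% of all genes were, and from day 22 to day 32 again 0 of 6, where 0.0% of all genes were (2142 at an unadjusted p under 0.05 in edgeR). The changes nearest to the threshold were those of LAMB3, at -1.44 (SE 0.66, -2.76 to -0.12, adjusted p = 0.976), and of LAMC3, at 0.97 (SE 0.48, adjusted p = 1.0), both from day 22 to day 32. The LAMC3 difference between days 22 and 32 was 0.74 (SE 0.34) on LN523 and -0.23 (SE 0.34) on LN521, neither of which was called.

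LAMB3 and LAMB4 differed more between the lanes of 1 group than between matrices. Lane 2 was the highest for LAMB3 in 6 of 6 groups of days 22 and 32 and for LAMB4 in 5 of 6, and lane 1 of LN521 was highest in the other. In the 18 late libraries, after the mean of each day was removed, log2 CPM of LAMB3 and LAMB4 were correlated at r = 0.903, and before that at r = 0.462. With the summed stratified epithelium markers LAMB3 was correlated at r = 0.923 (0.964 before day means were removed) and LAMB4 at r = 0.856 (0.366 before). LAMB1 was at r = 0.614 (-0.069 before) and LAMB2 at r = -0.714 (-0.144 before). LAMC1 was at r = 0.139 (-0.135 before) and LAMC3 at r = -0.133 (0.186 before). With day means removed LAMB3 was also correlated with summed netrin genes (r = 0.852), laminin receptor genes (r = 0.797), and mesenchyme markers (r = 0.573). It went the other way with basement membrane partner genes (r = -0.501) and pigment epithelium markers (r = -0.375). Over all 27 libraries LAMB2 and the stratified epithelium sum were correlated at r = 0.816, both being low at day 2. These are correlations over libraries that share 3 lanes, given as a description. The marker sum was 0.737 to 2.03 CPM at day 2, with 1 or 2 of the 5 genes at 0 in each library, 27.6 to 112 CPM at day 22, and 64.2 to 604 CPM at day 32, with at most 1 gene at 0 in a late library. At day 32 it was 511, 604, and 518 CPM in lane 2 of LN523, LN323, and LN521, 64.2, 123, and 436 CPM in lane 1, and 135, 163, and 232 CPM in lane 3. KRT17 was then the largest part, with group means of 177, 197, and 303 CPM against at most 53.6 CPM for any other marker. At day 22 TP63 was the largest, at 26.6 to 43.0 CPM. From day 22 to day 32, 1, 1, and 2 of the 5 markers were called as rising on LN523, LN323, and LN521. LAMB3 was above 80 TPM in the 4 libraries where the sum exceeded 400 CPM. Mesenchyme markers at day 32 were also highest in lane 2 of LN523 and LN323, at 10800 and 16250 CPM, as LAMB1 was there. On LN521 LAMB1 was highest in lane 2 too, but the mesenchyme markers were at 3461 CPM there and 3611 CPM in lane 1. The part of these cells in the chain levels was not tested. On lanes 1 and 3 only, LAMB3 still rose from day 22 to day 32 on all 3 matrices but its rise from day 2 to day 22 on LN523 was 0.47 (adjusted p = 0.509).

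**Figure D5:**
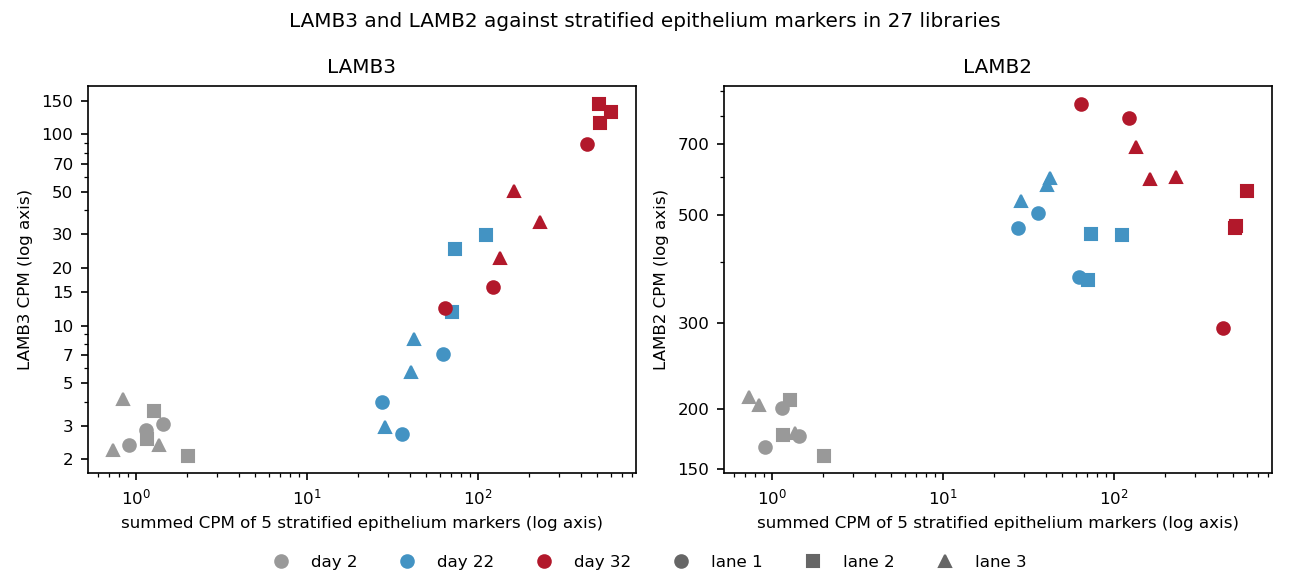
LAMB3 (left) and LAMB2 (right) CPM against the summed CPM of 5 stratified epithelium markers in 27 libraries, on log axes; color gives the day and marker shape the lane. LAMB3 climbs along the marker sum over the 18 libraries of days 22 and 32 (r = 0.964, or 0.923 with day means removed). LAMB2 is at r = -0.144 in these libraries, or -0.714 with day means removed, and is lowest at day 2.

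Among 14067 protein-coding genes with a mean of at least 1 CPM, those most like each chain over the 27 libraries were listed by Pearson's r of log2 CPM. For LAMC3 they were RASIP1 (r = 0.955), SYT3 (r = 0.955), and TMEM52 (r = 0.954), and with day means removed TMEM52 was first, at r = 0.701. For LAMC1 they were GAB1 (r = 0.906), RIC1 (r = 0.901), and FOXO3 (r = 0.893), and with day means removed TRAF3IP2, UST, and RIC1 (r = 0.786, 0.773, and 0.772). LAMB2 was most like DKK3 (r = 0.978), PDGFRB (r = 0.975), and THRA (r = 0.973), and with day means removed DKK3 (r = 0.878), HTRA1 (r = 0.877), and CLSTN1 (r = 0.858). LAMB1 was most like KANK4 and COL17A1 (r = 0.949 each) and MYOF (r = 0.948). LAMB3 was most like GJB2 (r = 0.91), KRT15 (r = 0.9), and NCOA7 (r = 0.896), and with day means removed MBOAT1, CDH3, and MTUS1 (r = 0.93, 0.93, and 0.927). LAMB4 was most like MAB21L4, KANK4, and IL36RN (r = 0.972, 0.97, and 0.969), and with day means removed PKP3, KCNG1, and GRHL2 (r = 0.931, 0.93, and 0.923). KRT15 is also in the stratified epithelium list. These likenesses are descriptions over libraries that share days and lanes.

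The genes that laminin chains are known to work with were counted by list. Of 5 α chain genes, none rose between matrices within a day, and 1 fell, LAMA5 at day 2, at 38.8 ± 14.0 TPM (SD, n = 3) on LN323 and 73.8 ± 17.4 TPM (SD, n = 3) on LN521 (log2 fold change -0.69, SE 0.18, edgeR adjusted p = 0.0121). LAMA5, the α chain of LN523 and LN521, was the highest α chain in all 9 groups. The epithelial α chain LAMA3, which pairs with β3, was the lowest at day 22 on each matrix, and from day 22 to day 32 it rose on LN521 (1.98, SE 0.4, adjusted p = 0.00778) with 1.57 (SE 0.39, adjusted p = 0.161) on LN323 and 1.1 (SE 0.39, adjusted p = 0.518) on LN523. Of 6 basement membrane partners, HSPG2, which encodes perlecan, was lower at day 2 on LN523 (-0.72, SE 0.19, adjusted p = 0.0306) and LN323 (-0.65, SE 0.19, adjusted p = 0.0255) than on LN521. Under the filterByExpr filter no gene was called in either of these day 2 comparisons, so the LAMA5 and HSPG2 calls were lost there. None of the 7 receptors or 6 netrins, which share the laminin N-terminal domain, was called between matrices. From day 2 to day 22 on LN523, 5 of 6 partners rose and none fell (median 1.31), with 2 rises and 1 fall of 5 α chains (median 0.51), 2 rises and 1 fall of 7 receptors (median 0.46), and 4 rises of 6 netrins (median 2.05), against a median of 0.02 over all genes. On LN523 COL4A2, a chain of the collagen IV network, rose by 2.3 (SE 0.22, adjusted p = 1.4e-12), and ITGB4, the receptor subunit of hemidesmosomes, by 2.62 (SE 0.33, adjusted p = 7.39e-09). On LN323, where 22.7% of all genes were called, the rises were 4 of 6 partners, 2 of 5 α chains, 1 of 7 receptors, which had 1 fall, and 3 of 6 netrins. On LN521, where 18.9% were called, they were 3 of 6 partners, 1 of 5 α chains and 1 of 7 receptors, each with 1 fall, and 4 of 6 netrins. The shares of receptors called on LN323 and LN521 were near those backgrounds. From day 22 to day 32 none of the partners, receptors, or netrins was called on any matrix. Of the 5 α chains, 1 fell on LN523, 1 rose and 1 fell on LN521, and none was called on LN323. Group means of LAMA1 went from 230 to 106 CPM on LN523, 204 to 108 CPM on LN323, and 233 to 106 CPM on LN521.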

How the data were processed

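Bulk RNA-seq of H1 hESCs was deposited for 27 libraries, 3 for each of 9 groups of matrix and day. The authors trimmed reads with cutadapt, aligned them with STAR 2.5.2b to GRCh38 with Ensembl annotation, and counted genes with featureCounts 1.5.1, leaving out rRNA and mitochondrial genes. The deposited count table holds these counts as whole numbers, of which 68.8% of the non-zero values are even. The deposited TPM table holds the same counts divided by a fixed gene length and scaled by the authors to 1000000 per library. The strand setting is not given in the sources used here.

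The members and lists were chosen with earlier results of these data known. Symbols were matched for 43052 of 44852 Ensembl identifiers. Genes with a summed count above 1 were tested with edgeR 4.0.16 in R 4.3.3 (TMM, quasi-likelihood), matrices on the 9 libraries of a day and days on all 27. The replicate number in the labels is the sequencing lane, so lane was a block; deviations from group means of libraries of 1 lane correlated between LN523 and LN323 at a mean r of -0.39, 0.601, and 0.693 at days 2, 22, and 32, and with LN521 between -0.104 and 0.201. Alternatives were RLE normalization, the filterByExpr filter, no block, limma 3.58.1 on log2(TPM + 1) or log2(TPM + 0.1), DESeq2 1.42.0, other sets of libraries, and each library left out. Related genes were named where they passed between matrices within a day or had the highest or lowest level of their list, and the 3 genes most like each member were named. The genes most like LAMB1 with day means removed, and the summed neural retina list, are not reported here. The fits were tested on simulated counts.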

Additional observations from a re-analysis of the deposited data

How the results depend on the processing

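No member was called between matrices within a day under any alternative except in 4 comparisons. When only LN523 and LN323 were fitted at day 32, 2 members were called (LAMB1 and LAMB3). With 1 library left out the count ran from 0 to 1 for LN523 minus LN521 and LN323 minus LN521 at day 22 (LAMB3, without the LN521 library of lane 1) and for LN323 minus LN521 at day 32 (LAMB1, likewise). The single member called between days 22 and 32 became 0 on each matrix under the filterByExpr filter and in limma with either pseudocount, and 0 on LN523 and LN323 in DESeq2 and with no replicate block. It became 2 on LN523 and LN521 when only the groups compared were fitted and on lanes 1 and 3 only, a setting chosen after seeing the data. With 1 library left out it ran from 0 to 1 on LN523 and LN323. The number of all genes called depended on the setting as well, from 0 under the filterByExpr filter to 639, 486, and 823 in DESeq2 for LN523 minus LN521 at days 2, 22, and 32. With 1 library left out the 24 genes called for LN523 minus LN521 at day 32 ran from 1 to 1907, the 46 for LN323 minus LN521 from 0 to 2143, and at day 2 the 241 and 967 ran from 28 to 890 and from 124 to 3439. The cause was not tested.

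Small matrix differences changed sign, and none of these was called by the main test. In limma on log2(TPM + 1) and log2(TPM + 0.1), LN523 minus LN521 at day 2 became -0.14 for LAMB1 and -0.15 for LAMC1, and LN323 minus LN521 became -0.16 for LAMC1 and -0.02 and -0.03 for LAMB3. For LN323 minus LN521, LAMB1 became 0.0 under the filterByExpr filter, 0.12 in 1 fit of all libraries, 0.04 with only the groups compared, and 0.26 on lanes 1 and 3 at day 2, and 0.01 with RLE normalization and DESeq2, 0.0 in 1 fit, and 0.02 on lanes 1 and 3 at day 22. LAMB2 at day 2 became 0.02 for LN523 in 1 fit and on lanes 1 and 3, and 0.04 for LN323 in 1 fit. On lanes 1 and 3, LN523 minus LN521 became -0.11 for LAMB1, -0.14 for LAMB3, and 0.17 for LAMC3 at day 22 and -0.26 for LAMB1 at day 32, and LN323 minus LN521 became 0.12 for LAMC3 at day 22. Without the replicate block LAMB4 at day 22 became 0.33 for LN523 and 0.43 for LN323. The replicate block changed the calls of LAMB3 named above and in the report and no other member's call.

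With 1 library left out, LN523 minus LN521 ran at day 2 from -0.25 to 0.46 for LAMB1, -0.12 to 0.1 for LAMB2, -0.14 to 0.57 for LAMB3, -0.02 to 0.13 for LAMC1, and -0.21 to 0.04 for LAMC3, at day 22 from -0.11 to 0.3 for LAMB1, -0.07 to 1.27 for LAMB3, -1.69 to 0.53 for LAMB4, and -1.27 to 0.02 for LAMC3, and at day 32 from -0.23 to 0.34 for LAMB1. LN323 minus LN521 ran at day 2 from -0.3 to 0.41 for LAMB1, -0.23 to 0.05 for LAMB2, and -0.02 to 0.47 for LAMB3, at day 22 from -0.13 to 0.14 for LAMB1, -0.1 to 1.21 for LAMB3, -1.57 to 0.49 for LAMB4, and -1.1 to 0.28 for LAMC3, and at day 32 from -1.32 to 0.38 for LAMB3, -2.14 to 1.08 for LAMB4, and -0.18 to 0.23 for LAMC3. LN523 minus LN323 at day 32 ran from -1.13 to 0.1 for LAMB3, and day 32 minus day 22 of LAMB1 on LN323 from -0.38 to 0.12.

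The difference in the ratio of LAMC3 to LAMC1 became -0.15 at day 2 and 0.14 at day 32 for LN523 alone against LN521, and ran from -0.1 to 0.11 at day 2 with 1 library left out. That of LAMB2 to LAMB1 ran from -0.42 to 0.25 at day 2 and -0.02 to 0.7 at day 32. With lane means removed it was 0.25 at day 22 (p = 0.0357 by permutation across lanes, which is not an exact test within lanes). With 3 libraries a group, and 1 count of LAMB4 at day 2, small differences were not detectable at this depth.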
